A study of Coilia nasus with 12 samples.

Results

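Guanylin (GUCA2A), the water channel aquaporin 4 (AQP4), the sodium bicarbonate cotransporter SLC4A4 and the sodium, potassium and chloride cotransporter Slc12a2 were followed in stomach RNA of 12 fish of the anadromous anchovy Coilia nasus. Every unigene, meaning a group of transcripts assembled without a genome, was taken if its deposited gene name equalled one of these 4 names in any letter case. That gave 6 unigenes of 63567 in the table: 1 each for GUCA2A, AQP4 and Slc12a2, and 3 for SLC4A4. By their labels, 6 fish had taken food (food intake) and 6 had not (no food intake), with 1 library per fish. The tissue label reads stomach and the source label gastric mucosa. The sources used here do not give strain, age, sex, diet or the time since the meal. The 4 genes were put together with their values in this comparison already known, so the differences between the feeding groups are given as a description without a test.

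Guanylin is a small secreted peptide known from the mammalian gut, where it binds the receptor guanylate cyclase C on epithelial cells and raises cyclic GMP, which in turn drives chloride, bicarbonate and water into the lumen. In mammals the other 3 proteins sit in the basolateral membrane of secreting epithelia. AQP4 passes water in gastric parietal cells, SLC4A4 carries sodium together with bicarbonate, and SLC12A2 (NKCC1) loads the cell with chloride for secretion across the opposite face.

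The values were read as TPM, a transcript level corrected for length and scaled to a common total, because the column totals were near equal at 984119 to 992092. TPM does not record depth, and the only error shown is the spread between libraries, with 1 per fish. Each library had 49867 to 57025 unigenes above 0. Food intake 6 stood apart, with 64.2% of its TPM in 7 abundant unigenes, against 4.34% to 26.9% in the other libraries. These 7 are called rRNA-like (like ribosomal RNA) here. They were picked by their level and by following a unigene named ART2 across libraries, and their sequence was not checked. No food intake 3 stood apart in its cell markers, with 26735 TPM summed over 9 smooth muscle genes against 1562 to 6869 in the other libraries, and with 58293 TPM summed over genes of acid and pepsinogen cells against 108904 to 372235. The libraries also fell into a set of 7 (food intake 1, 5 and 6 with no food intake 1, 2, 4 and 6) and a set of 5, told apart by 7 unigenes with a chicken mitochondrial best match. The labels do not say what these sets are. The markers of acid and pepsinogen cells and of surface mucous cells, at sums of 5602 TPM or more in every library, stood above those of intestine and exocrine pancreas, at sums of at most 362.6 TPM. In bulk tissue, fewer cells of a type and less RNA per cell cannot be told apart.

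The best protein match of all 6 unigenes was a fish protein of the gene named. The GUCA2A unigene (TRINITY_DN31520_c0_g1, 1604 bases) had a guanylin-like protein of Clupea harengus, the Atlantic herring, as best match and carried the Guanylin domain of Pfam. The AQP4 unigene (TRINITY_DN29411_c5_g1) was 2764 bases long and the Slc12a2 unigene (TRINITY_DN34673_c3_g3) 2771 bases. The longer SLC4A4 unigenes carried different domains, and the place of the shortest one in the gene is not known. TRINITY_DN29739_c3_g3 (1791 bases) carried the bicarbonate transporter domain, TRINITY_DN26841_c5_g1 (1586 bases) carried the cytoplasmic domain that band 3 proteins share, and TRINITY_DN28252_c2_g13 was a fragment of 267 bases matched to a carp protein. They are called the membrane-domain, the cytoplasmic-domain and the short SLC4A4 unigene below. They may be pieces of 1 transcript or transcripts of related genes, which the table does not settle. The gene ontology term for the basolateral membrane was attached to 3 of the 6 unigenes (AQP4, the cytoplasmic-domain SLC4A4 and Slc12a2) and to 50 of 18158 named unigenes, or 0.275%. The genes were chosen by name, and 3 of them are known from that membrane in mammals, so this is no test of enrichment.

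By mean TPM over the 12 libraries, guanylin was the most abundant at 52.4 TPM, rank 769 of 63567 unigenes. AQP4 followed at 7.11 TPM (rank 7104) and Slc12a2 at 3.75 TPM (rank 13443). The membrane-domain SLC4A4 unigene had 2.92 TPM, the cytoplasmic-domain unigene 2.34 TPM and the short unigene 0.838 TPM. The filter of 1 TPM in at least 6 libraries was passed by 5 of the 6 unigenes, and the short SLC4A4 unigene, at 1 TPM or more in 5 libraries, did not pass.

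Guanylin, the ligand, was higher in the libraries with food intake, where it spanned 32.77 to 137.0 TPM with a median of 91.73, against 5.95 to 37.06 TPM with a median of 23.75 without food intake. Food intake 1, 2, 3 and 5 stood between 89.95 and 137.0 TPM and lay above every library without food intake. Food intake 4 at 32.77 TPM and food intake 6 at 34.42 TPM lay below no food intake 4 at 37.06 TPM, so the groups overlapped. The means were 81.9 ± 41.0 against 22.9 ± 11.1 TPM (SD, n = 6 each), a ratio of 3.58, and the mean difference in log2(TPM + 1) was 1.79 (SE 0.46 from limma). All further log2 differences are food intake minus no food intake on this scale, which understates changes of low unigenes. Within the set of 7 libraries the means were 87.1 against 25.1 TPM and within the set of 5 they were 76.7 against 18.4 TPM. When the TPM were rescaled after leaving out the rRNA-like unigenes, the means were 103.1 ± 38.1 against 26.9 ± 13.5 TPM, and 5 of the 6 libraries with food intake lay above every library without, compared with 4 of 6 as deposited.

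AQP4, the water channel, spanned 1.83 to 27.74 TPM with a median of 10.82 with food intake, and 0.33 to 5.62 TPM with a median of 2.275 without. Food intake 5 was the highest library, as it was for guanylin, and no food intake 3 the lowest. Food intake 6, the library rich in rRNA-like unigenes, had 1.83 TPM and lay below the median without food intake. The means were 11.7 ± 8.99 against 2.52 ± 1.94 TPM (SD, n = 6 each), a ratio of 4.64, with a log2 difference of 1.71 (SE 0.50). It was 1.27 in the set of 7 libraries and 2.54 in the set of 5, where the 2 libraries without food intake averaged 0.865 TPM.

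SLC4A4, the bicarbonate carrier, was spread over its unigenes in unlike ways. The membrane-domain unigene spanned 0.83 to 9.81 TPM (median 3.685) with food intake and 0.18 to 3.61 TPM (median 1.01) without. It was high in food intake 5 and low in food intake 6, and in no food intake 1 and 6 it reached 3.61 and 3.39 TPM, more than in 3 of the libraries with food intake. Its means were 4.26 ± 3.08 against 1.59 ± 1.52 TPM (SD, n = 6 each), a log2 difference of 1.02 (SE 0.43). The cytoplasmic-domain unigene spanned 1.87 to 7.50 TPM (median 2.76) with food intake and 0.12 to 3.46 TPM (median 0.74) without. It was highest in food intake 3, not in food intake 5, and the only library without food intake above 1.01 TPM was no food intake 4. Its means were 3.57 ± 2.08 against 1.10 ± 1.19 TPM (SD, n = 6 each), a log2 difference of 1.16 (SE 0.35) that was 0.72 in the set of 7 libraries and 1.83 in the set of 5. The short unigene was listed at 0 in 4 libraries, 2 of each group, and reached 3.79 TPM in food intake 6, the library where the membrane-domain unigene was lowest of its group. Its means were 1.15 ± 1.40 against 0.53 ± 0.49 TPM (SD, n = 6 each), and its log2 difference of 0.33 (SE 0.39, fitted without the filter) was smaller than its error.

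Summed over its 3 unigenes, SLC4A4 spanned 6.48 to 15.21 TPM with food intake and 1.42 to 4.62 TPM without. The groups did not overlap. As deposited this rested on the short unigene, which did not pass the filter and gave 3.79 of the 6.93 TPM in food intake 6. The longer unigenes had 0.83 and 2.31 TPM there. In no food intake 1 they had 3.61 and 1.01 TPM, with the short unigene at 0. Among 9496 gene names tested as sums, 0.0211% did not overlap with food intake higher. This share is printed beside the count only, since the names were chosen from the same comparison. The means of the sum were 8.97 ± 3.36 against 3.22 ± 1.32 TPM (SD, n = 6 each), a log2 difference of 1.25. The groups of the sum also did not overlap after rescaling without the rRNA-like unigenes.

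None of the 3 pairs of SLC4A4 unigenes had a correlation past the threshold. Deviations of log2(TPM + 1) from the group mean gave a Pearson r of 0.03 and a Spearman rho of 0.27 between the membrane-domain and the cytoplasmic-domain unigene over 12 libraries (permutation within groups, 100000 resamples, two-sided, p = 0.938 and 0.426, adjusted over 3 pairs 0.938 and 0.426). Without the 2 libraries farthest from the median, r was -0.10. The short unigene had r = -0.55 with the membrane-domain unigene (rho = -0.37, permutation p = 0.0798 and 0.263, adjusted 0.239 and 0.398) and -0.69 without the 2 farthest libraries. The short and the cytoplasmic-domain unigene had r = -0.30 (rho = -0.36, permutation p = 0.339 and 0.265, adjusted 0.509 and 0.398) and -0.14 without the 2 farthest libraries. The ratio of the membrane-domain to the cytoplasmic-domain unigene ranged from 0.0954 in no food intake 4 to 4.46 in no food intake 6, and from 0.357 in food intake 3 to 2.59 in food intake 1.

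Slc12a2, the chloride loader, spanned 2.23 to 11.37 TPM (median 5.355) with food intake and 1.08 to 3.04 TPM (median 2.08) without. Food intake 1, 2, 3 and 5 lay between 5.33 and 11.37 TPM, above all 6 libraries without food intake, while food intake 4 (2.23 TPM) and food intake 6 (2.72 TPM) lay among them. These are the same libraries that fell into the range without food intake for guanylin. The means were 5.50 ± 3.26 against 2.01 ± 0.692 TPM (SD, n = 6 each), a ratio of 2.74, with a log2 difference of 1.0 (SE 0.33). It was similar in both library sets, 0.93 in the set of 7 and 1.04 in the set of 5. Its spread was the smallest of the tested unigenes here without food intake, with a coefficient of variation of 34.5% against 48.3% for guanylin, 76.8% for AQP4 and 95.8% and 108.0% for the longer SLC4A4 unigenes.

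**Figure D1:**
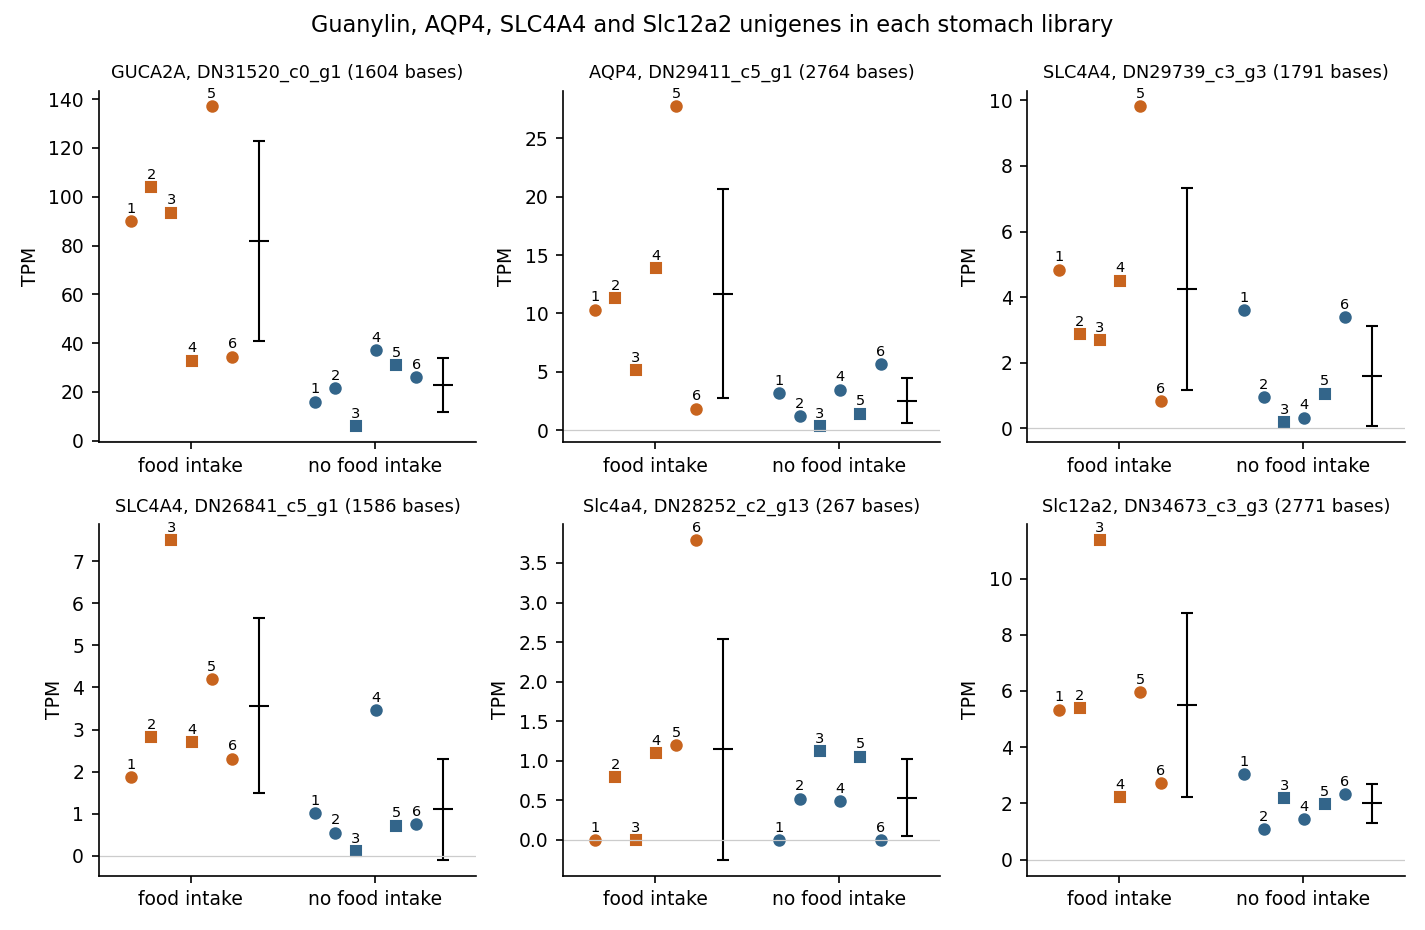
TPM (linear axis) of each of the 6 unigenes, 1 panel each, in the 6 libraries with food intake (orange) and the 6 without (blue), with replicate numbers beside the points, circles for the set of 7 libraries, squares for the set of 5, and black bars for the group mean ± SD. Guanylin, AQP4 and Slc12a2 each have 4 of 6 points with food intake above all points without, and food intake 6 lies low in AQP4 and in the membrane-domain SLC4A4 unigene (DN29739_c3_g3).

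All 6 libraries with food intake lay above the median without food intake for 3 of the 5 tested unigenes (guanylin, the cytoplasmic-domain SLC4A4 and Slc12a2), and 5 of 6 did for AQP4 and the membrane-domain SLC4A4. After rescaling without the rRNA-like unigenes, all 6 did for guanylin, AQP4 and both longer SLC4A4 unigenes and 5 of 6 for Slc12a2, beside 7.33% of all unigenes with all 6 above. As deposited, over all 40142 tested unigenes, 2.41% had all 6 libraries with food intake above that median, 46% had a log2 difference above 0 and 0.0249% had groups that did not overlap with food intake higher. In limma over the whole table, 0 of 40142 unigenes (0%) passed an adjusted p of 0.05 by the method of Benjamini and Hochberg, while 2.48% were higher and 3.79% lower with food intake at an unadjusted p under 0.05. The count of adjusted calls was 2 under quantile normalization and 1 after rescaling without the rRNA-like unigenes. The log2 difference stayed above 0 for each of the 5 tested unigenes in every alternative that could be fitted and in both library sets. For the short SLC4A4 unigene it was 0.84 in the set of 7 and -0.42 in the set of 5.

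The question whether the 4 genes were high in the same libraries was put to the most abundant unigene of each name. Ranked from 1 for the highest of the 12 libraries, food intake 5 ranked 1 for guanylin, AQP4 and SLC4A4 and 2 for Slc12a2. In food intake 1, 2 and 5 all 4 genes were among the 6 highest libraries. Food intake 3 was highest for Slc12a2 but ranked 7 for SLC4A4, and food intake 4 ranked 2 for AQP4 and 3 for SLC4A4 but 7 for guanylin and 8 for Slc12a2. Food intake 6 ranked 6, 9, 10 and 6 for guanylin, AQP4, SLC4A4 and Slc12a2 in that order, and 5, 7, 8 and 2 after rescaling without the rRNA-like unigenes. At the other end, all 4 genes were among the 6 lowest libraries in no food intake 2, 3 and 5, and no food intake 3 was the lowest of 12 for guanylin, AQP4 and SLC4A4. Over the 4 genes, no food intake 6 and 1 had mean ranks of 6.5 and 7, ahead of food intake 6 at 7.75. That order turned after rescaling, with 7.25 and 7.5 against 5.5 for food intake 6. The ranks also depended on the SLC4A4 unigene taken, and the mean ranks above hold for the membrane-domain unigene only. Summed over its unigenes, SLC4A4 as deposited ranked 2 in food intake 3 and 4 in food intake 6. In food intake 6 the short unigene gave 3.79 of the 6.93 TPM. The SLC4A4 sum ranked 7 and 9 for replicates 1 and 6 of the fish without food.

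These ranks hold the difference between the groups, so the genes were also compared after removing each group's mean. Of the 6 pairs, AQP4 and SLC4A4 moved together (r = 0.83, permutation p = 0.00268, adjusted 0.0161; rho = 0.75, permutation p = 0.0122, adjusted 0.0731). Their r was 0.95 among the fish with food intake and 0.67 among those without, and 0.67 over both groups when food intake 6 and no food intake 3, the 2 farthest libraries, were left out. The adjusted permutation p of r was 0.0557 after rescaling without the rRNA-like unigenes, 0.107 with SLC4A4 summed over its unigenes, 0.0626 without food intake 5 and 0.0923 without food intake 6, with r from 0.69 to 0.77. It was 0.165 for deviations within each library set (r = 0.81) and 0.274 when both food intake 6 and no food intake 3 were dropped. The call for this pair thus rested on single libraries and on the scaling.

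For guanylin and AQP4 r was 0.57 and rho 0.44 (permutation p = 0.0643 and 0.175, adjusted 0.193 and 0.467), which did not pass the threshold. Leaving out its 2 farthest libraries, food intake 4 and no food intake 3, gave r = 0.70. Without food intake 4 alone this pair reached r = 0.75 with an adjusted permutation p of 0.028. In the other direction, r was 0.35 after rescaling without the rRNA-like unigenes, 0.44 without food intake 6 or without no food intake 3, and 0.11 with both of these dropped. Guanylin and SLC4A4 had r = 0.39 and rho = 0.25 (permutation p = 0.24 and 0.454, adjusted 0.363 and 0.544), and 0.34 without the 2 farthest libraries. Guanylin and Slc12a2 also had r = 0.39, with rho = 0.34 (permutation p = 0.242 and 0.312, adjusted 0.363 and 0.467). This pair had r = 0.33 without its 2 farthest libraries, 0.79 within food intake and -0.35 within no food intake, which was not tested as a difference.

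Slc12a2 had the lowest r of the 6 pairs with the other carriers. It was 0.13 with AQP4 (rho = 0.19, permutation p = 0.743 and 0.594, adjusted 0.743 and 0.594) and 0.32 with SLC4A4 (rho = 0.38, permutation p = 0.356 and 0.253, adjusted 0.427 and 0.467). Without the 2 farthest libraries these were -0.15 and 0.16. After rescaling without the rRNA-like unigenes they were -0.31 and -0.0096.

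**Figure D2:**
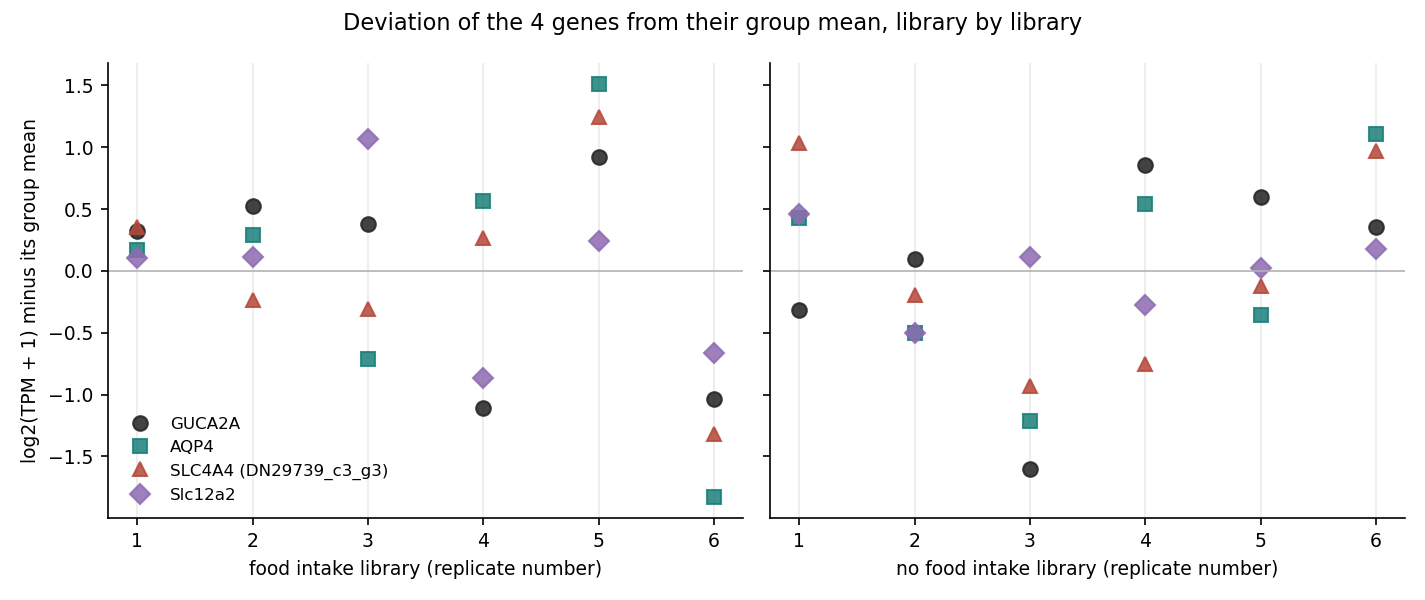
Deviation of log2(TPM + 1) from the group mean (y axis) of guanylin, AQP4, the membrane-domain SLC4A4 unigene and Slc12a2 in each library (x axis, replicate number), with food intake on the left and no food intake on the right. AQP4 and SLC4A4 are both high in food intake 5 and both low in food intake 6 and no food intake 3 (r = 0.83), whereas Slc12a2 is highest in food intake 3, where AQP4 lies below its group mean.

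The levels were also set beside the summed TPM of the stomach's cell markers, a comparison added after the values were seen. Only the surface mucous, acid and pepsinogen and smooth muscle sums were correlated with the genes. The other marker lists, nerve and enteric glia among them, were not. The adjusted p values do not cover this choice of lists. Food intake 6 was the lowest library for surface mucous markers, at 5602 TPM against 14054 to 27150 in the others. Food intake 5, highest for guanylin, AQP4 and SLC4A4, was the highest for both acid and pepsinogen markers (372235 TPM) and surface mucous markers. These sums are as deposited, with 64.2% of the TPM of food intake 6 in the rRNA-like unigenes, which lowers all its other values. After removing group means, AQP4 had r = 0.84 with the surface mucous sum (rho = 0.86, permutation, adjusted p of r 0.00684 and of rho 0.00636 over 12 pairs; r = 0.79 without the 2 farthest libraries). SLC4A4 had r = 0.78 with the acid and pepsinogen sum (rho = 0.83, adjusted permutation p = 0.00762 and 0.0134; r = 0.75 without the 2 farthest libraries). AQP4 had r = 0.72 with the acid and pepsinogen sum (rho = 0.64, adjusted permutation p = 0.0271 and 0.105), which was 0.26 without the 2 farthest libraries. The farthest libraries were picked by the gene alone. They were food intake 6 and no food intake 3 for AQP4, but food intake 5 and no food intake 1 for SLC4A4. The SLC4A4 value of 0.75 thus kept the lowest libraries for the acid and pepsinogen sum, at 108904 and 58293 TPM. It is not comparable with the 0.26. SLC4A4 had r = 0.70 with the surface mucous sum (rho = 0.66, adjusted permutation p = 0.0312 and 0.0898; 0.74 without the 2 farthest libraries). With the smooth muscle sum it had r = -0.64 (rho = -0.57, adjusted permutation p = 0.0489 and 0.15; -0.63 without the 2 farthest libraries).

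The most abundant gene was CHIA in the acid and pepsinogen list, FCGBP in the surface mucous list and TAGLN in the smooth muscle list. How far single genes set the r values was not tested. All marker sums share the library's scaling with the 4 genes. In that comparison 5 of 12 pairs had an adjusted permutation p of r under 0.05 as deposited, 0 after rescaling without the rRNA-like unigenes and 0 without food intake 6. The rescaled r were 0.67 for AQP4 with the mucous sum and 0.65 for SLC4A4 with the acid and pepsinogen sum (adjusted permutation p 0.0923 for both). Guanylin had r = 0.61 with the acid and pepsinogen sum and 0.43 with the mucous sum (adjusted permutation p 0.107 and 0.255), and Slc12a2 had 0.18 and 0.21 (0.591 and 0.616). Without the 2 farthest libraries of each gene these were 0.50 and 0.81 for guanylin and 0.40 and 0.61 for Slc12a2. After rescaling, over all libraries, r with the mucous sum was 0.05 for guanylin and -0.44 for Slc12a2. The surface mucous sum had medians of 19540 TPM with food intake and 17560 without, and the acid and pepsinogen sum 284700 and 257400 TPM. The smooth muscle sum had medians of 3986 and 3768 TPM. Log2 differences of the sums were -0.09 for surface mucous, 0.35 for acid and pepsinogen and -0.04 for smooth muscle. Among the other lists they were 1.19 for exocrine pancreas and 0.69 for nerve and enteric glia. For enteroendocrine cells, intestine and blood they were 0.10, 0.06 and 0.01. Endothelium, leukocytes and skeletal muscle had -0.05, -0.12 and -0.44. By gene, 6 of 7 surface mucous and 5 of 5 acid and pepsinogen genes had the higher mean with food intake. For smooth muscle this was 1 of 9 genes. The means without food intake include no food intake 3, with a smooth muscle sum of 26735 TPM against 1562 to 6869 in the other libraries. The count without that library was not taken. Of other cell types, exocrine pancreas genes summed to 13.5 to 362.6 TPM with food intake and 9.61 to 96.9 without, and 7 of the 8 with a unigene had the higher mean with food intake. The 362.6 TPM was in food intake 6, and the next highest library was food intake 2 at 105.5 TPM. Blood genes summed to 83.8 to 621.1 against 83.1 to 740.2 TPM, intestinal genes to 46.7 to 299.7 against 142.0 to 339.8 TPM and leukocyte genes to 14.7 to 32.0 against 14.0 to 52.1 TPM. Of the nerve and enteric glia list only S100B and SYT1 had unigenes, and their sum had medians of 53.83 TPM with food intake and 26.23 without, over 12.61 to 73.63 and 20.06 to 45.86 TPM. Only 1 of these 2 genes had the higher mean with food intake, and SYT1 was the more abundant. Food intake 1, 2, 3 and 5 lay above every library without food intake for that sum and food intake 6 was the lowest of all. Those 4 libraries were also the highest for guanylin. The ranges of the exocrine pancreas, blood, intestinal, leukocyte and nerve sums overlapped between the groups. The part of these cell markers in the differences between feeding groups was not tested.

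**Figure D3:**
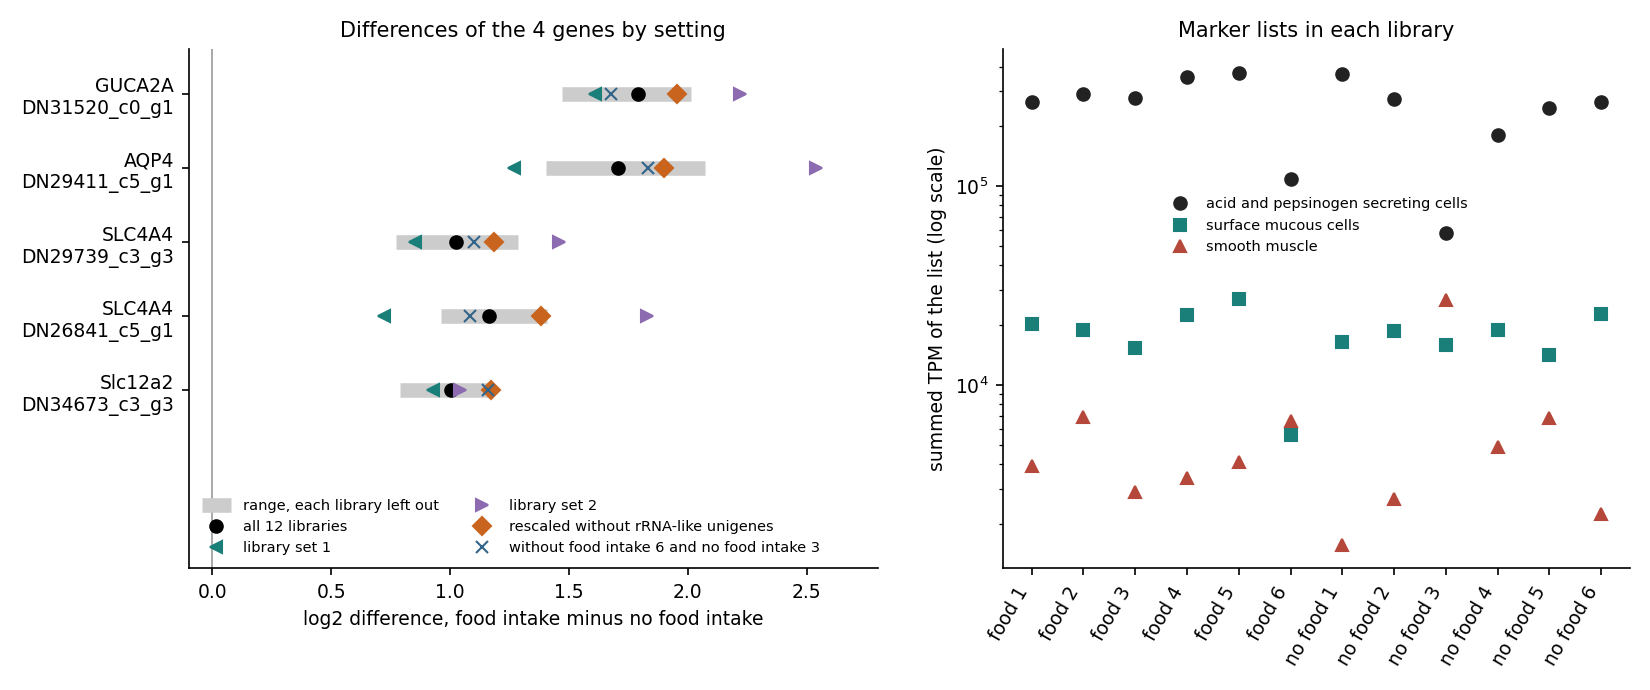
Left, log2 difference (food intake minus no food intake) of the 5 tested unigenes with all 12 libraries, in each library set alone (set 1 has 7 libraries, set 2 has 5), after rescaling and without food intake 6 and no food intake 3, with grey bars for the range over single libraries left out. Right, summed TPM of 3 marker lists in each library on a log axis, as deposited and not rescaled. All differences on the left lie above 0. Food intake 6, rich in rRNA-like unigenes, is lowest for surface mucous markers and no food intake 3 highest for smooth muscle markers.

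The other genes of these pathways were read from lists by gene name, with the 4 genes themselves left out. No list had a unigene past an adjusted p of 0.05 in limma, and the background for the unadjusted counts that follow is the 2.48% higher and 3.79% lower given above. Of the list on cyclic GMP signalling, which also holds receptors for natriuretic peptides and the nitric oxide sensing cyclase, 19 unigenes of 10 names were found and 11 were tested. Of these 1 had a log2 difference above 0, 0 were higher and 1 was lower at an unadjusted p under 0.05, and the median log2 difference was -0.15 beside -0.04 over all tested unigenes. That median was 0.02 in the set of 5 libraries, and 3 of the 11 lay above 0 after rescaling without the rRNA-like unigenes. No unigene carried the names GUCY2C (guanylate cyclase C), CFTR (a chloride channel) or GUCA2B (uroguanylin), so guanylin's receptor was not analysed here.

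The unigene with the unadjusted call was PRKG2, a cyclic GMP dependent kinase whose best match was a kinase 1-like protein, at 1.88 ± 1.09 TPM with food intake and 4.23 ± 2.18 without (SD, n = 6 each). Its log2 difference was -0.83 (SE 0.35, limma adjusted p = 0.774). It was -1.60 in the set of 7 libraries and 0.28 in the set of 5. The most abundant unigene of Prkg1, the other cyclic GMP kinase, had 2.99 ± 2.72 against 4.78 ± 2.85 TPM. Pde9a, which degrades cyclic GMP, had 1.21 ± 0.845 against 2.99 ± 2.21 TPM. Like PRKG2, both were lower in the set of 7 and higher in the set of 5. The log2 difference of that Prkg1 unigene was -0.55, and other tested PRKG1 unigenes had -0.13, -0.04 and -0.03. PDE5A, another cyclic GMP phosphodiesterase and the most abundant of the list, had 6.78 ± 2.60 against 7.84 ± 3.61 TPM. GUCY1B3, a subunit of the soluble guanylate cyclase, had 1.50 ± 0.626 against 2.12 ± 0.567 TPM. Of the natriuretic peptide receptor NPR1, a relative of guanylin's receptor, 2 short unigenes that did not pass the filter were listed at 0 in all 6 libraries with food intake and were above 0 only in no food intake 4 (6.41 and 8.12 TPM) and no food intake 5 (4.89 and 4.0 TPM). The other 3 NPR1 unigenes, which also did not pass the filter, were above 0 in both groups, at up to 2.09 TPM with food intake and 3.56 TPM without.

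Beside AQP4, 9 unigenes of 5 other aquaporin names were found and 6 tested. Of these 4 had a log2 difference above 0, 0 passed the unadjusted threshold in either direction, and the median was 0.23, falling below 0 (-0.17) in the set of 7 libraries. The abundant ones were a pair of AQP8 unigenes, a channel that also passes ammonia and hydrogen peroxide, at 32.3 ± 14.8 against 24.7 ± 7.18 TPM and 32.5 ± 14.8 against 22.5 ± 13.1 TPM. Their log2 differences were 0.27 and 0.62, against 1.71 for AQP4. AQP3, a channel for water and glycerol, had 3.30 ± 1.92 against 2.08 ± 1.27 TPM in its longer unigene. A unigene of 250 bases also named AQP3 lay on the other side of 0, at 1.65 ± 2.67 against 2.29 ± 1.78 TPM. Its best match was a chimpanzee protein, where the longer unigene had one of the herring, and whether it is a fish transcript was not tested. AQP11 had 1.47 ± 0.619 against 2.43 ± 0.965 TPM.

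Of the SLC4 family beside SLC4A4, 5 of 10 unigenes were tested, 4 had a log2 difference above 0, 0 passed the unadjusted threshold, and the median was 0.83. Of these 5, 3 were named SLC4A2, and the median was the value of one of them, so the list mostly counts 1 gene. The others were slc4a1 (0.49) and Slc4a7 (-0.09). The median stayed above 0 under each scaling tried and in both library sets. The leading gene was Slc4a2, the anion exchanger AE2 that lets bicarbonate leave acid-secreting cells on the basolateral side in mammals. Its most abundant unigene had 43.35 ± 20.7 TPM with food intake and 21.5 ± 16.0 without (SD, n = 6 each), a log2 difference of 1.25 (SE 0.62), 0.74 in the set of 7 libraries and 2.11 in the set of 5. A second SLC4A2 unigene had 9.17 ± 4.92 against 4.30 ± 3.02 TPM (0.96) and a further one 3.21 against 1.44 TPM (0.83). Their limma unadjusted p values were 0.0582, 0.0576 and 0.0541 in that order, with adjusted p of 0.803, 0.803 and 0.8. After rescaling without the rRNA-like unigenes, 3 of the 5 tested unigenes were higher at the unadjusted threshold, beside 5.68% of all unigenes under that scaling.

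The other SLC12 unigenes lay on both sides of 0. Of 18 10 were tested, 4 had a log2 difference above 0, 0 passed the unadjusted threshold, and the median was -0.12, with 0.34 in the set of 5 libraries and 0.06 without food intake 6. Slc12a7, a potassium and chloride cotransporter that lets chloride out of cells, had the most abundant unigene. It had 4.94 ± 1.82 TPM with food intake and 13.7 ± 22.0 without, where no food intake 4 alone had 58.58 TPM. A Slc12a7 unigene of 507 bases lay on the other side of 0, at 2.72 ± 0.89 against 1.73 ± 0.94 TPM (log2 difference 0.47). Further tested Slc12a7 unigenes had -0.25 and -0.22. Another member of the family, slc12a8, had 2.07 ± 0.816 against 1.13 ± 0.419 TPM in a unigene of 555 bases, a log2 difference of 0.51. Its longer unigene (2043 bases) had 2.48 ± 1.3 against 2.12 ± 0.74 TPM, a log2 difference of 0.10 that was -0.32 in the set of 7 libraries.

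The WNK kinases and OXSR1, which act in the phosphorylation that switches on NKCC1 in mammals, were represented by 13 unigenes, of which 9 were tested. The related kinase STK39 was on the list but no unigene carried its name. Of these 5 lay above 0, 0 passed the unadjusted threshold, and the median was 0.05, with -0.36 in the set of 7 libraries and 0.44 in the set of 5. The most abundant Wnk4 unigene stood at 12.1 ± 4.91 against 17.0 ± 4.70 TPM, and another Wnk4 unigene lay on the other side of 0 at 5.37 ± 2.19 against 3.32 ± 1.79 TPM. OXSR1 had 1.91 ± 1.34 against 0.925 ± 0.415 TPM and the most abundant Wnk1 unigene 3.52 ± 1.26 against 4.11 ± 2.48 TPM.

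Among the carriers and channels beside them in acid and bicarbonate secretion, 21 of 32 unigenes were tested, 13 lay above 0, 1 was higher and 0 were lower at an unadjusted p under 0.05, and the median was 0.09. In the set of 7 libraries 4 of the 21 lay above 0, beside 36.7% of all tested unigenes, and in the set of 5 all 21 did, beside 62.7%. The list's median of -0.17 in the set of 7 lay near that of all tested unigenes, -0.19. The 1 with the unadjusted call was kcnq1, a potassium channel subunit of the acid-secreting cell, at 5.62 ± 2.78 against 1.96 ± 1.21 TPM (SD, n = 6 each). Its log2 difference was 1.16 (SE 0.37, limma adjusted p = 0.768). All 6 of its libraries with food intake lay above the median without. A second, more abundant KCNQ1 unigene had 8.45 ± 3.84 against 6.13 ± 3.72 TPM, a log2 difference of 0.51 (SE 0.45, limma adjusted p = 0.877), which was -0.17 in the set of 7 libraries. Its partner subunit Kcne2, the most abundant of the list, had 56.1 ± 29.0 against 59.3 ± 35.1 TPM.

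**Figure D4:**
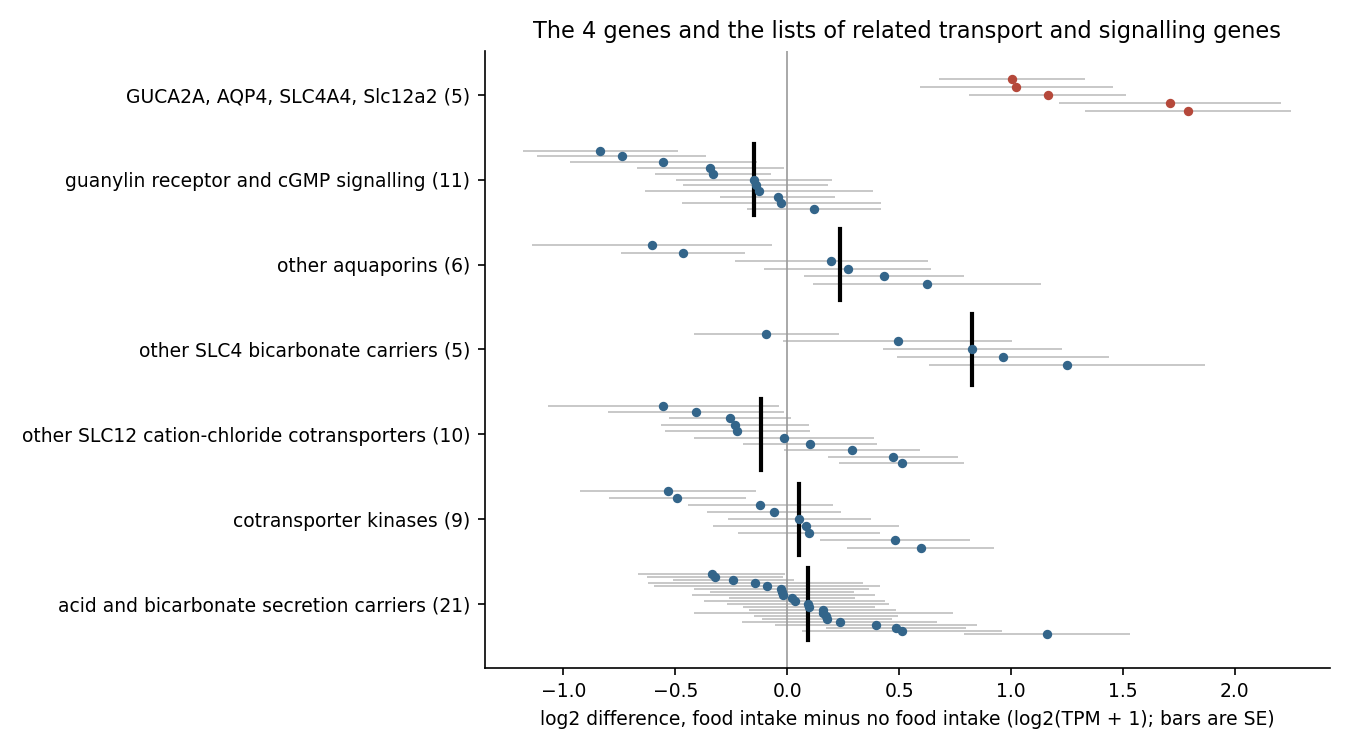
Log2 difference of log2(TPM + 1), food intake minus no food intake, with 1 point per tested unigene, grey bars for its SE and a black line at each list's median, for the 4 genes (red) and the pathway lists (blue, number tested in brackets). The SLC4 list, mostly unigenes of SLC4A2, has a median of 0.83, the aquaporins 0.23 and the cyclic GMP and SLC12 lists -0.15 and -0.12.

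Across 4373 named unigenes with a mean of at least 5 TPM and above 0 in all libraries, the 3 whose deviations from the group means were most like each gene's were listed as a description over 12 libraries, which share their scaling. Nearest to guanylin were plc (r = 0.91, a unigene whose best match is an unnamed trout protein, 229.7 ± 141.3 TPM with food intake and 98.95 ± 46.5 without), ECI2, an isomerase of fatty acid oxidation (0.91), and IGFLR1 (0.90). Nearest to AQP4 were WWP2, a ubiquitin ligase (0.95), a unigene named PTGDS whose best match is a lipocalin of the NGAL kind (0.95), and ndel1b (0.93). The membrane-domain SLC4A4 unigene had ivns1abpa (0.91), YWHAQ, a 14-3-3 protein (0.90), and ndel1b (0.90), so ndel1b stood on the list of both carriers. Slc12a2 had ATP6V0E1, a subunit of the vacuolar proton pump (0.90), ACTA1, an actin (0.85), and CTSZ, a lysosomal protease (0.84).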

How the data were processed

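RNA from 12 stomachs, 1 per fish, was extracted with TRIzol and paired-end sequenced on an Illumina HiSeq instrument, per the labels' protocols. The submitters' processing notes name cutadapt and FastQC, without versions. The deposited values were taken to be the authors' TPM, judged from column totals. The identifiers are those of Trinity. The quantifier is not given in the sources used here. All 12 sample columns matched a label (0 unmatched). The 4 genes, the lists and the tests were chosen with earlier results of these data known. A test for counts had been foreseen too, and its form for TPM was used.

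Differences are from limma (3.58.1 in R 4.3.3, reading the values through data.table version 1.17.8) with a trend, on log2(TPM + 1), group as the only term, for the 40142 unigenes that reached 1 TPM in 6 or more libraries. P values are two-sided and adjusted by the Benjamini-Hochberg method (threshold 0.05). They rest on the spread between libraries. With 1 library per fish, differences between fish and between library preparations cannot be separated. Pairs were compared by permuting libraries within groups (100000 resamples, Python 3.11.15, numpy 2.4.6, scipy 1.17.1), using the most abundant unigene per name. The 2 farthest libraries of a pair were picked by a single variable. It was the gene earlier in the order guanylin, AQP4, SLC4A4 and Slc12a2, the more abundant SLC4A4 unigene, or the gene beside a marker sum. Plots used matplotlib 3.10.9. Scripts were tested on simulated data.

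As rRNA-like were counted the 7 unigenes averaging 1000 TPM or above that followed the most abundant ART2 unigene at r = 0.95 or higher (log values). The library sets were read from 7 unigenes with a chicken mitochondrial match, above 0 in a set of 7 libraries and at 0 in the other 5. No pair of libraries was a duplicate (Spearman correlation 0.433 to 0.641). Lists were matched by gene name. Of each list, all unigenes were counted. Those named were drawn mainly from the most abundant, those with the smallest unadjusted p, and receptors and kinases. Not every unigene of these kinds is named. SLC4A1AP, which is no carrier, was left out of the SLC4 list. The nearest unigenes are the 3 with the highest r of deviations among 4373 candidates. The replicate numbers were not taken as pairs of fish.

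Alternatives were quantile normalization, rescaling without the rRNA-like unigenes, a pseudocount of 0.1, no trend, no filter, a filter at 5 TPM, a replicate block, a library set term, each set alone, values summed by gene name, and each library left out. Leaving out food intake 6 with no food intake 3, and the comparison with marker sums, were added after seeing the data.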

Additional observations from a re-analysis of the deposited data

Results flagged for a closer look

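In 66 groups of 6 libraries drawn from the unigenes reported above, 5 held a highest library whose gap to the next, divided by the group's range, passed Dixon's critical value of 0.625. For independent groups of normal values, chance flags about 1 in 20. The gaps were taken on TPM without logs, and whether that rate holds for them was not tested. The cytoplasmic-domain SLC4A4 unigene had 3.46 TPM in no food intake 4, with 1.01 TPM in the next library. The short Slc4a4 unigene had 3.79 TPM in food intake 6, with 1.20 TPM in the next. A Prkg1 unigene (TRINITY_DN30411_c5_g1) had 8.40 TPM in food intake 4, with 2.62 TPM in the next. The other 2 unigenes belong to the SLC12 family and were high in the same library, no food intake 4. SLC12A5 (TRINITY_DN31348_c2_g4) had 6.94 TPM there with 1.36 TPM in the next, and Slc12a7 (TRINITY_DN31348_c2_g2) had 58.58 TPM with 6.40 TPM in the next. Their identifiers share a Trinity component, so how reads were divided between them is uncertain.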

How the results depend on the processing

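The log2 differences of the 5 tested unigenes stayed above 0 in every alternative that could be fitted. Leaving out 1 library in turn gave 1.47 to 2.01 for guanylin, 1.41 to 2.07 for AQP4, 0.77 to 1.29 and 0.96 to 1.41 for the membrane-domain and cytoplasmic-domain SLC4A4, and 0.79 to 1.18 for Slc12a2. The cytoplasmic-domain SLC4A4 moved by more than its spread between replicates, from 1.16 to 1.94 with a pseudocount of 0.1 and to 1.83 in the set of 5 libraries alone. AQP4 went from 1.71 to 2.54 in that set, which did not count as more than its spread. A minimum of 5 TPM kept only guanylin and AQP4.

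The count of unigenes at adjusted p under 0.05 (0 in limma as reported) was 2 under quantile normalization, 1 after rescaling without the rRNA-like unigenes, 1 without no food intake 4 and 0 to 1 over single libraries left out. The unadjusted higher and lower counts were 997 and 1521 as reported, 2278 and 1013 after rescaling, 590 and 2379 in the set of 7 libraries, 1958 and 592 in the set of 5. The higher count was 1601 under quantile normalization, 1571 without a filter, 3355 without food intake 6 and 2866 without food intake 6 and no food intake 3. The lower count was 915 without no food intake 4, and a minimum of 5 TPM gave 222 higher and 482 lower.

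Same-numbered libraries of the 2 groups had correlations of deviations from -0.102 to 0.108 and 0 libraries with food intake correlated best with their own number. The values thus showed no likeness by number. They cannot tell whether fish were matched by design, which the labels do not state. With the replicate block, the adjusted count was 0, and 0 gene pairs and 0 marker pairs were called (r = 0.90 for AQP4 and SLC4A4, exact permutation, adjusted p 0.108).

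The count of gene pairs at adjusted p under 0.05 (1 as reported) was 0 after rescaling, 0 summed by gene name, 0 within library sets, 0 with food intake 6 and no food intake 3 both dropped, and 0 to 2 over single libraries (0 without food intake 5 or 6, 2 without food intake 4). Marker pairs numbered 5 as reported, 0 after rescaling, 2 summed by gene name, 1 within library sets, 0 with food intake 6 and no food intake 3 both dropped, and 0 to 5 over single libraries: 3 without food intake 1 or 4 or no food intake 1 or 6, 2 without no food intake 3 and 0 without food intake 6. Leaving out both libraries reversed guanylin with SLC4A4 (r = -0.16) and AQP4 with Slc12a2 (r = -0.17). AQP4 with Slc12a2 was also reversed without food intake 6 (r = -0.19, range over single libraries left out -0.19 to 0.42) and after rescaling (r = -0.31), and SLC4A4 with Slc12a2 after rescaling (r = -0.0096). Rescaling moved the median log2 difference of all tested unigenes from -0.04 to 0.06, and it was -0.19 and 0.18 in the sets of 7 and 5 libraries. The cause of these shifts was not tested. Depth is unknown from TPM, and the SLC4A4 unigenes near 1 TPM are the least certain values.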
